A study of Mus musculus with 35 samples.

Results

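The expression of 10 genes was examined in hematopoietic stem/progenitor cells (HSPCs) of WT and JMJD1B-/- mice. These were Prmt5, the genes of its partner proteins Wdr77, Clns1a and Riok1, and the genes of 6 other protein arginine methyltransferases, namely Prmt1, Prmt2, Prmt3, Carm1, Prmt6 and Prmt7. They were chosen by name, and all 10 were among the 11982 gene names of the deposited table and passed the filter on low values. Polyadenylated RNA of bone marrow HSPCs was sequenced, with 2 biological replicates of each genotype and 1 library a replicate. All mice were of the mixed strain 129P2xC57BL/6J, no agent was given, and the groups were defined by the JMJD1B-/- gene trap, a knockout that is not restricted to a cell type. Adult mice of both sexes were used in the study. Littermates of the same age were used for the ChIP-seq experiments, and no source used here says so for RNA-seq or ties an RNA library to an age or a sex. The 31 ChIP-seq samples of the series were not used here. Levels are given in RPKM (reads scaled to the length of the transcript and to the depth of the library), a unit in which genes of different length can be compared.

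Protein arginine methyltransferases transfer methyl groups from S-adenosylmethionine to the side chain of arginine. Type I enzymes (PRMT1, PRMT2, PRMT3, CARM1 and PRMT6) leave an asymmetric dimethylarginine, type II enzymes (PRMT5 and PRMT9) a symmetric one, and PRMT7, a type III enzyme, stops at monomethylarginine. PRMT5 works in a complex known as the methylosome, in which WDR77 (MEP50) is its constant partner and pICln, the product of Clns1a, and RIOK1 compete for the same place and bring different substrates. The symmetric mark at arginine 3 of histone H4, H4R3me2s, is made by PRMT5, and whether JMJD1B takes it off was the question of the study. PRMT5 is needed for blood formation in adult mice.

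Kdm3b, the gene of JMJD1B, measured 31.0 and 24.3 RPKM in WT HSPCs, against 4.00 and 4.63 RPKM in JMJD1B-/- HSPCs, and was lower (log2 fold change −2.65, adjusted p = 0.0314 in limma). The adjusted call was kept in 8 of 14 alternatives and lost with median-ratio scaling (0.0602), quantile normalization (0.0978), no trend (0.212), the gene-by-gene test (0.608) and without WT replicates 1 (0.796) and 2 (0.619), while the log2 fold change of Kdm3b was −2.82 to −2.42 in all 14. Relative to WT replicate 1, the estimated depth was 1.405 in WT replicate 2, and it was 0.349 for the first and 1.202 for the second JMJD1B-/- replicate. JMJD1B-/- replicate 1 was thus the shallowest library, and 3 reads on 1 kb of transcript equal 0.491 RPKM there, against 0.122 to 0.171 RPKM in the others, a floor that covers counting error only. Of 11863 genes tested, 5 (0.0421%) were called between the genotypes at an adjusted p under 0.05 in limma, 4 lower (0.0337%) and 1 higher (0.00843%). At an unadjusted p under 0.05, 1203 (10.1%) passed, 452 higher (3.81%) and 751 lower (6.33%). None of the 10 genes was called after adjustment, with adjusted p between 0.402 and 0.995 in limma. At an unadjusted p under 0.05, 2 of the 10 were higher in JMJD1B-/- HSPCs, Clns1a and Prmt5, and 0 were lower. Fold changes are those of RPKM + 0.1, JMJD1B-/- over WT, and 95% intervals are those of limma.

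**Figure D1:**
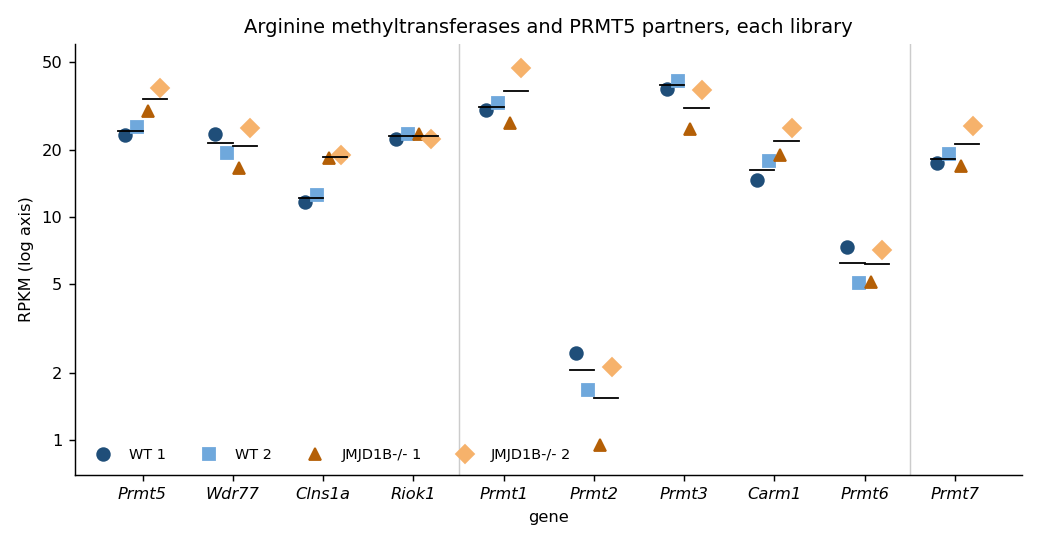
RPKM of the 10 genes in each of the 4 libraries, on a log axis. Symbols are single libraries and short lines are the means of 2 libraries. The JMJD1B-/- symbols lie above the WT symbols for Prmt5, Clns1a and Carm1 and below them for Prmt3. Grey lines separate the PRMT5 methylosome, the type I enzymes and PRMT7.

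Of the methylosome genes, Prmt5 and Clns1a were higher in both JMJD1B-/- libraries, while Wdr77 and Riok1 overlapped between the genotypes. Prmt5 had 23.4 and 25.3 RPKM in WT HSPCs, against 30.0 and 38.1 RPKM in JMJD1B-/- HSPCs. The JMJD1B-/- libraries lay above the WT libraries without overlap, as they did for 20.1% of all genes tested, with means of 24.4 ± 1.40 RPKM in WT and 34.1 ± 5.75 RPKM in JMJD1B-/- HSPCs (SD, n = 2 each). The log2 fold change of Prmt5 was 0.47 (95% interval 0.0016 to 0.95, unadjusted p = 0.0494, adjusted p = 0.491 in limma). Its size depended on the JMJD1B-/- replicates: the log2 fold change was 0.65 without replicate 1 (unadjusted p = 0.00787 in limma) and 0.30 without replicate 2 (unadjusted p = 0.165 in limma). Its unadjusted p was also above 0.05 without either WT replicate, at 0.217 without replicate 1 and 0.129 without replicate 2 (limma).

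Clns1a codes for pICln, which carries Sm proteins, the core proteins of spliceosomal small nuclear ribonucleoproteins, to PRMT5. It measured 11.7 and 12.7 RPKM in WT HSPCs, against 18.5 and 19.0 RPKM in JMJD1B-/- HSPCs. The groups did not overlap, and the replicates of each genotype lay closer together than the genotypes did, at 12.2 ± 0.694 RPKM in WT and 18.8 ± 0.407 RPKM in JMJD1B-/- HSPCs (SD, n = 2 each). The mean in JMJD1B-/- HSPCs was 154% of the WT mean. The log2 fold change was 0.62 (95% interval 0.15 to 1.10, unadjusted p = 0.0171, adjusted p = 0.402 in limma), and omitting single libraries gave 0.56 to 0.68. Its unadjusted p was 0.123 without WT replicate 1 and 0.0752 without WT replicate 2 (limma). Of the 11863 genes tested, Clns1a had the 503rd lowest p and Prmt5 the 1193rd.

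The promoters of these 2 genes are shown because they are the members with an unadjusted p under 0.05. They are the 250 bases before the start of the gene in the RefSeq annotation of build GRCm38.p6, 5′ to 3′ on the strand of the gene, Prmt5 at chr14:54517471-54517720 on the minus strand and Clns1a at chr7:97696407-97696656 on the plus strand. Capitals mark CCAAT, the box bound by NF-Y, on either strand (ATTGG on the other), and the palindrome CACGTG, an E-box that MYC and MAX can bind. The 2 motifs do not overlap.
Prmt5: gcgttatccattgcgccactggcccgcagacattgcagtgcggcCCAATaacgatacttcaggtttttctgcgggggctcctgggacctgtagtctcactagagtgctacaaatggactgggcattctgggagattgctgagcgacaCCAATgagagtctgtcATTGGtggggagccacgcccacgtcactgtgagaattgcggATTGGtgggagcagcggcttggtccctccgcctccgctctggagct
Clns1a: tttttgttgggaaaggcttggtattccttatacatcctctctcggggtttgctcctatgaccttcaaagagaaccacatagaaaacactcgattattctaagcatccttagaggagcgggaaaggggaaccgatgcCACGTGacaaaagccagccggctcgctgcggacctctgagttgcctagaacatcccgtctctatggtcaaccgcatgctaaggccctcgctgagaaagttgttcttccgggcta
The Prmt5 stretch holds 4 matches to CCAAT and none to CACGTG, and the Clns1a stretch holds 1 match to CACGTG and none to CCAAT. Promoters of 9 of the 10 genes were matched, and CCAAT occurred in 4 of these (Prmt5, Prmt1, Prmt2 and Prmt3) and CACGTG in 3 (Clns1a, Prmt1 and Prmt3). Among all 32851 promoter stretches of this length, 33.8% hold CCAAT and 6.02% hold CACGTG. A match says that the letters are present, and binding was not measured here.

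Wdr77 measured 23.6 and 19.5 RPKM in WT HSPCs, against 16.7 and 25.1 RPKM in JMJD1B-/- HSPCs. The JMJD1B-/- values lay on both sides of the WT values, and the log2 fold change was −0.068 (95% interval −0.66 to 0.52, adjusted p = 0.949 in limma). Riok1, whose product links PRMT5 to nucleolin, measured 22.6 and 23.8 RPKM in WT HSPCs, against 23.7 and 22.5 RPKM in JMJD1B-/- HSPCs. It was the steadiest of the 10 genes, with all 4 libraries between 22.5 and 23.8 RPKM, and its log2 fold change was −0.0061 (95% interval −0.44 to 0.43, adjusted p = 0.995 in limma). Its interval includes a fold of 1.35 upward and of 0.736 downward, so that a change within these bounds is not excluded here.

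Among the type I enzymes, Carm1 was higher and Prmt3 lower in both JMJD1B-/- libraries, without reaching an unadjusted p under 0.05, and the other 3 overlapped between the genotypes. Carm1, the gene of PRMT4, a coactivator that methylates histone H3, measured 14.7 and 17.9 RPKM in WT HSPCs, against 19.1 and 25.1 RPKM in JMJD1B-/- HSPCs. The nearest libraries of the genotypes lay closer together than the WT libraries did, and the log2 fold change was 0.43 (95% interval −0.11 to 0.96, adjusted p = 0.581 in limma). It was 0.23 without JMJD1B-/- replicate 2. Prmt3, which methylates ribosomal protein S2 in the cytosol, measured 37.7 and 41.0 RPKM in WT HSPCs, against 24.8 and 37.2 RPKM in JMJD1B-/- HSPCs. Its lower mean rested on JMJD1B-/- replicate 1: the log2 fold change was −0.37 with all libraries (95% interval −0.92 to 0.17, adjusted p = 0.627 in limma), −0.080 without that library and −0.66 without JMJD1B-/- replicate 2 (unadjusted p = 0.00653 in limma).

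Prmt1, which makes most of the asymmetric dimethylarginine of a cell, measured 30.2 and 32.5 RPKM in WT HSPCs, against 26.6 and 47.0 RPKM in JMJD1B-/- HSPCs. The WT replicates were close and the JMJD1B-/- replicates lay on either side of them, so that the sign depended on the library: the log2 fold change was 0.17 with all libraries (adjusted p = 0.864 in limma), 0.59 without JMJD1B-/- replicate 1 and −0.24 without JMJD1B-/- replicate 2. Prmt6, a nuclear enzyme of histone H3 arginine 2, measured 7.40 and 5.07 RPKM in WT HSPCs, against 5.15 and 7.16 RPKM in JMJD1B-/- HSPCs. Its genotypes overlapped almost fully, and its log2 fold change was −0.012 (limma, adjusted p = 0.994), a value whose sign turned to 0.058 with quantile normalization. Prmt2 was the lowest of the 10 genes, with 2.47 and 1.68 RPKM in WT HSPCs, against 0.953 and 2.14 RPKM in JMJD1B-/- HSPCs. The value in JMJD1B-/- replicate 1 rests on 5.82 reads per kb of transcript, against 41.2 to 44.96 reads per kb in the other libraries, and the log2 fold change, −0.48 (limma, adjusted p = 0.799, standard error 0.56), became 0.068 once it was omitted.

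Prmt7 measured 17.5 and 19.2 RPKM in WT HSPCs, against 17.0 and 25.6 RPKM in JMJD1B-/- HSPCs. One JMJD1B-/- library lay below and the other above both WT libraries, and the log2 fold change, 0.18 (95% interval −0.40 to 0.76, adjusted p = 0.834 in limma), was −0.11 without JMJD1B-/- replicate 2. In all, 5 of the 10 genes had a log2 fold change above 0 and 5 below 0, with a median of 0.084, against 47.0% above 0 and a median of −0.025 over all genes tested. One library decided the sign of the median, which was 0.35 without JMJD1B-/- replicate 1, −0.18 without JMJD1B-/- replicate 2 and 0.12 and 0.13 without WT replicates 1 and 2. The genotypes were fully separated, with JMJD1B-/- above WT, in 3 of the 10 genes, against 20.1% of all genes tested, and with JMJD1B-/- below WT in 1, against 22.7%.

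**Figure D2:**
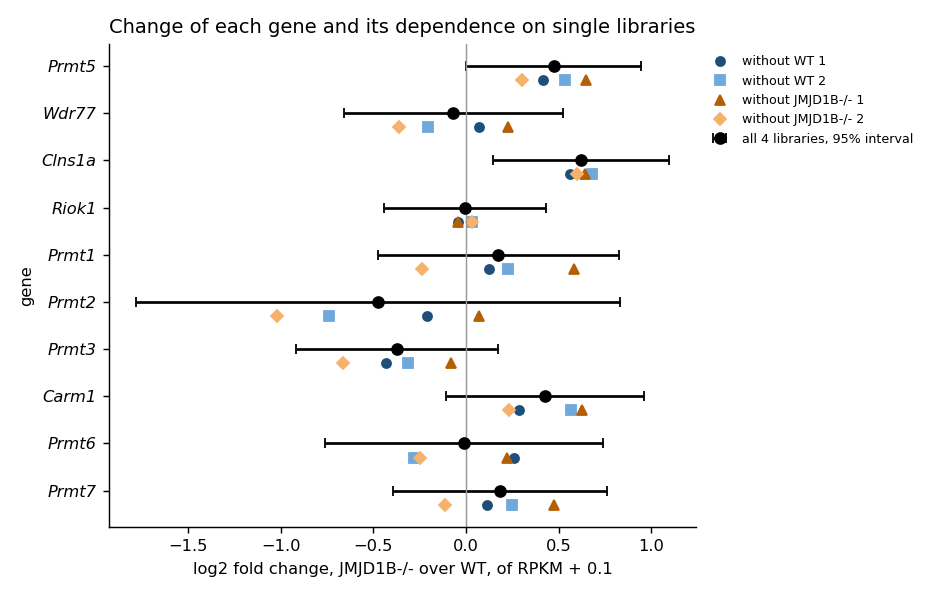
Log2 fold change of the 10 genes, JMJD1B-/- over WT, of RPKM + 0.1. Black points are the estimates from all 4 libraries with their 95% intervals from limma, and colored symbols below each are the estimates with 1 library left out. The intervals of Clns1a and Prmt5 lie above 0 and those of the other 8 genes include it, and the 4 estimates of Clns1a stay between 0.56 and 0.68.

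Much of the spread lay between the JMJD1B-/- replicates. Without replicate 1, 5 of the 10 genes were higher at an unadjusted p under 0.05 in limma (Prmt5, Clns1a, Prmt1, Carm1 and Prmt7), where 10.6% of all genes tested were higher and 11.0% lower. Without replicate 2, Clns1a was higher and Prmt3 lower, where 6.13% of all genes were higher and 15.3% lower. JMJD1B-/- replicate 2 was above JMJD1B-/- replicate 1 in 9 of the 10 genes, Riok1 being the exception, with a median log2 difference of 0.53. Over all genes tested the same difference had a median of 0.18 and was above 0 in 65.6% of genes. Between the WT replicates, replicate 2 was above replicate 1 in 7 of the 10 genes, with a median log2 difference of 0.11, against 0.0051 over all genes. The lowest and the highest of the 10 differences between the JMJD1B-/- replicates were −0.079 for Riok1 and 1.09 for Prmt2. The part of the depth of JMJD1B-/- replicate 1 in these differences was not tested.

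In WT HSPCs the order of the mean levels was Prmt3 (39.4 RPKM), Prmt1 (31.3), Prmt5 (24.4), Riok1 (23.2), Wdr77 (21.6), Prmt7 (18.4), Carm1 (16.3), Clns1a (12.2), Prmt6 (6.23) and Prmt2 (2.07). Some neighbours in this order overlapped between their WT libraries and cannot be ranked, namely Prmt5 and Riok1, Riok1 and Wdr77, and Prmt7 and Carm1. Prmt3 was above 87.9% of the listed genes and Prmt2 above 14.9%, while the 4 methylosome genes lay between 55.5% for Clns1a and 77.0% for Prmt5. In JMJD1B-/- HSPCs the highest mean was that of Prmt1, at 36.8 RPKM, followed by Prmt5 with 34.1 RPKM and Prmt3 with 31.0 RPKM, but the JMJD1B-/- libraries of Prmt3 and Prmt1, and those of Prmt1 and Prmt5, overlapped, as did those of Prmt5 and Prmt3.

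A ratio of 2 genes within a library does not depend on how the libraries were scaled, so Prmt5 was set against each of the other 9 genes. The ratio of Prmt5 to Prmt3 was 0.619 in each WT library and 1.21 and 1.03 in the JMJD1B-/- libraries, and the difference was 0.85 on the log2 scale. Prmt3 was thus the more abundant transcript of the pair in both WT libraries. It was the less abundant in JMJD1B-/- replicate 1, while in JMJD1B-/- replicate 2 the 2 genes were nearly level, at 37.2 RPKM for Prmt3 and 38.1 RPKM for Prmt5. The log2 difference was 0.73 to 0.97 when single libraries were omitted. The ratio of Prmt5 to Wdr77 was 0.989 and 1.30 in the WT libraries and 1.80 and 1.52 in the JMJD1B-/- libraries. The share of Prmt5 in the summed RPKM of the 7 enzymes among the members was 17.5% and 17.8% in the WT libraries and 24.3% and 20.9% in the JMJD1B-/- libraries, while the 5 type I enzymes made up 69.4% and 68.8% in WT and 62.0% and 65.1% in JMJD1B-/- HSPCs.

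Prmt5 and Clns1a had nearly the same proportion in 3 of the 4 libraries. The ratio of Prmt5 to Clns1a was 2.002 and 2.003 in WT HSPCs, and 1.63 and 2.004 in JMJD1B-/- HSPCs. The lone lower value was that of JMJD1B-/- replicate 1. In the other libraries Clns1a rested on 204 to 400 reads per kb of transcript. Counting error at such numbers is larger than the differences between those ratios. The balance of the adaptors differed more, a comparison that was chosen after the values had been seen: the ratio of Clns1a to Riok1 was 0.517 and 0.532 in the WT libraries and 0.778 and 0.848 in the JMJD1B-/- libraries. JMJD1B-/- HSPCs lay above WT HSPCs without overlap in 9 of the 11 ratios and shares compared. Of the 9 ratios of Prmt5, 7 did so, against 67.6% of the ratios of Prmt5 to all genes tested that were above 0 in every library, so that this count is near the background. The ratios of Prmt5 to Clns1a and to Carm1 overlapped. Most of these ratios share the values of Prmt5 and are not independent of each other. With 2 libraries a genotype, the smallest two-sided p of an exact permutation test is 0.333, and each of the 9 had that p (0.407 after Benjamini-Hochberg adjustment over the 11).

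**Figure D3:**
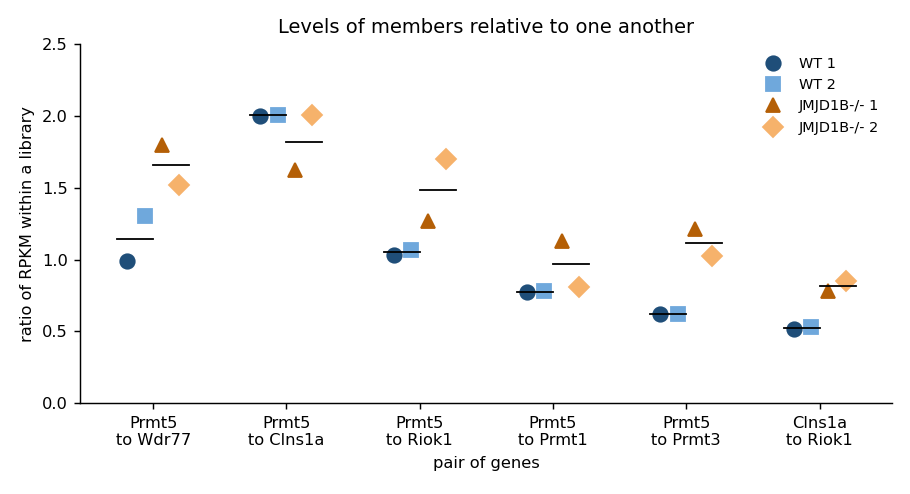
Ratio of the RPKM values of 2 genes within a library, from 0 on a linear axis. Symbols are single libraries and short lines are the means of 2 libraries. Prmt5 to Prmt3 goes from 0.619 in both WT libraries to 1.21 and 1.03 in the JMJD1B-/- libraries, Clns1a to Riok1 from 0.517 and 0.532 to 0.778 and 0.848, and Prmt5 to Clns1a is between 2.002 and 2.004 in 3 of the 4 libraries.

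Other genes of the arginine methylation pathway were described by lists. Of 83 genes, 72 were tested, and 0 of them had an adjusted p under 0.05 in limma. At an unadjusted p under 0.05, 5 were higher and 2 were lower, against 3.81% and 6.33% of all genes tested, and their median log2 fold change was 0.066. That median was 0.015 and 0.13 without WT replicates 1 and 2, and 0.19 and −0.055 when JMJD1B-/- replicates 1 and 2 were omitted. Among the other arginine methyltransferases, Prmt9 (under its older symbol Prmt10), the gene of the other type II enzyme, measured 13.9 and 13.2 RPKM in WT HSPCs, against 16.0 and 15.2 RPKM in JMJD1B-/- HSPCs (log2 fold change 0.21, adjusted p = 0.760 in limma). Ndufaf7, the gene of a mitochondrial arginine methyltransferase, listed as 2410091C18Rik, overlapped between the genotypes (log2 fold change −0.13, limma adjusted p = 0.897). Prmt8 was not found in the deposited table.

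The Sm proteins, which the PRMT5 methylosome methylates, and the SMN complex, which loads them onto small nuclear RNA, had 13 of 16 genes above 0 (47.0% of all genes) and a median log2 fold change of 0.25. JMJD1B-/- was above WT without overlap in 6 of the 16 (20.1% of all genes), and 2 were higher at an unadjusted p under 0.05 (3.81% of all genes). Snrpg, the gene of SmG, measured 80.9 and 76.5 RPKM in WT HSPCs, against 109 and 111 RPKM in JMJD1B-/- HSPCs (log2 fold change 0.48, unadjusted p = 0.0218, adjusted p = 0.425 in limma). Snrpd1, the gene of SmD1, a direct substrate of PRMT5, measured 65.2 and 78.2 RPKM in WT HSPCs, against 104 and 92.2 RPKM in JMJD1B-/- HSPCs (log2 fold change 0.45, unadjusted p = 0.0416, adjusted p = 0.479 in limma). The other 14 genes of the list did not pass at an unadjusted p under 0.05. Omitting JMJD1B-/- replicate 1 moved the median of the list to 0.49 and that of all genes to 0.086, and omitting JMJD1B-/- replicate 2 moved them to −0.050 and −0.10. The median of the list was 0.16 without WT replicate 1. Its summed level, 541 and 581 RPKM in WT and 607 and 753 RPKM in JMJD1B-/- HSPCs, had the same order over the 4 libraries as the erythroid sum (329 and 483, against 726 and 1369 RPKM) and the proliferation sum (1260 and 1484, against 1605 and 1666 RPKM), whose part in it was not tested.

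The enzymes that make, use and recycle S-adenosylmethionine had 11 of 13 genes above 0 (47.0% of all genes), with a median of 0.17. That median was −0.038 without JMJD1B-/- replicate 2, 0.39 without JMJD1B-/- replicate 1 and 0.091 without WT replicate 1. Mtrr, the gene of methionine synthase reductase, measured 6.67 and 7.52 RPKM in WT HSPCs, against 11.9 and 9.69 RPKM in JMJD1B-/- HSPCs (log2 fold change 0.59, unadjusted p = 0.0462, adjusted p = 0.486 in limma), and was the 1 gene of the 13 that passed at an unadjusted p under 0.05 (10.1% of all genes in either direction). Mtap, which clears methylthioadenosine, a metabolite that inhibits PRMT5, measured 9.75 and 11.1 RPKM in WT HSPCs, against 8.497 and 15.1 RPKM in JMJD1B-/- HSPCs, which overlap. Mtap was named after its values had been seen.

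Of 20 other known substrates of arginine methyltransferases, 11 were above 0 (47.0% of all genes), and Fen1 alone had an unadjusted p under 0.05 (10.1% of all genes in either direction). Fen1, the flap endonuclease of DNA replication and repair, measured 35.1 and 44.8 RPKM in WT HSPCs, against 53.8 and 63.2 RPKM in JMJD1B-/- HSPCs (log2 fold change 0.56, unadjusted p = 0.0264, adjusted p = 0.433 in limma). Its values had the same order over the libraries as the erythroid and proliferation sums, whose part in its difference was not tested. None of the 7 Tudor-domain readers tested passed at that threshold. Of the 10 binding partners and regulators, 1 did: Ncoa3, the gene of a nuclear receptor coactivator that works with CARM1, measured 21.2 and 17.9 RPKM in WT HSPCs, against 13.7 and 13.4 RPKM in JMJD1B-/- HSPCs (log2 fold change −0.52, unadjusted p = 0.0385, adjusted p = 0.477 in limma).

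The arginine deiminases, which turn arginine or, less readily, monomethylarginine of histones into citrulline, gave the widest differences among the lists of the pathway. Padi2 measured 13.8 and 8.66 RPKM in WT HSPCs, against 5.76 and 2.47 RPKM in JMJD1B-/- HSPCs (log2 fold change −1.51, unadjusted p = 0.00992, adjusted p = 0.347 in limma). Padi3 measured 0.260 and 0.238 RPKM in WT HSPCs, against 2.07 and 1.25 RPKM in JMJD1B-/- HSPCs (log2 fold change 2.29, standard error 0.78, unadjusted p = 0.0203, adjusted p = 0.420 in limma). The 4 values of Padi2 had the same order over the libraries as the summed granulocyte markers. Those sums were 268 and 182 RPKM in WT and 81.1 and 51.6 RPKM in JMJD1B-/- HSPCs. Cd79b, the 1 B cell marker tested, shared this order, at 3.28 and 1.99 RPKM in WT, against 1.22 and 0.631 RPKM. The summed basophil and mast cell markers were at 443 and 523 RPKM in WT, against 93.6 and 44.4 RPKM. The part of these markers in the difference of Padi2 was not tested. The groups did not overlap in Padi2 or Padi3, and the WT values of Padi3 are close to the floor of 0.122 to 0.171 RPKM that 3 reads on 1 kb represent. Padi4 overlapped between the genotypes, at 7.02 and 3.60 RPKM in WT and 8.55 and 2.84 RPKM in JMJD1B-/- HSPCs. Jmjd6, once proposed as an arginine demethylase, measured 17.8 and 17.6 RPKM in WT HSPCs, against 10.8 and 19.5 RPKM in JMJD1B-/- HSPCs, on both sides of the WT values. These 2 genes were named after their values had been seen.

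**Figure D4:**
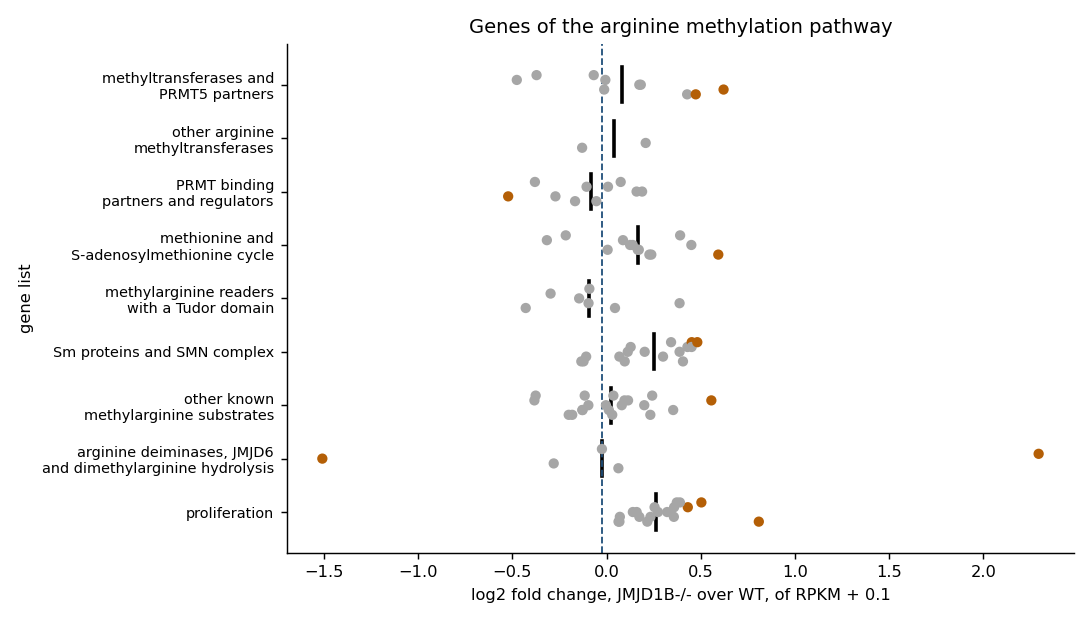
Log2 fold change, JMJD1B-/- over WT, of RPKM + 0.1, for the genes of each list. Each point is a gene, orange where its unadjusted p in limma is under 0.05 and grey otherwise, black bars are the medians of the lists, and the dashed line is the median of all genes tested (−0.025). Padi2 and Padi3, at −1.51 and 2.29, lie outside the range of the other genes, and 13 of the 16 genes of the Sm proteins and SMN complex lie above 0.

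Markers of cell types differed between the libraries along with Prmt5, Clns1a, Fen1, the Sm and SMN list and Padi2. Of 10 erythroid markers, all had a log2 fold change above 0 and 8 were higher at an unadjusted p under 0.05 in limma (3.81% of all genes), with a median log2 fold change of 1.35 and a summed level of 329 and 483 RPKM in WT HSPCs, against 726 and 1369 RPKM in JMJD1B-/- HSPCs. The erythroid sum, the proliferation sum, Prmt5 and Clns1a have the same order over the 4 libraries. The share of all genes with this order was not counted. Of all genes tested, 20.1% were separated upward in JMJD1B-/- HSPCs. JMJD1B-/- replicate 2 was above replicate 1 in 65.6%. A shared order over 4 libraries is a description and has no test. Of 18 proliferation genes, all were above 0, and JMJD1B-/- was above WT without overlap in 14 (20.1% of all genes). At an unadjusted p under 0.05, 3 were higher (3.81% of all genes), Rrm2, Mcm5 and Ccna2, with log2 fold changes of 0.81, 0.50 and 0.43. The summed level of this list was 1260 and 1484 RPKM in WT HSPCs, against 1605 and 1666 RPKM in JMJD1B-/- HSPCs. None of these markers is at 0 in any library. In bulk RNA, a different number of cells of a type and a different level of RNA per cell cannot be told apart, and the part of these lists in the values of Prmt5 and Clns1a was not tested.

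The markers of HSPCs themselves were present in all libraries. Of the 10, 9 had a log2 fold change below 0, with a median of −0.63, and Kit was the exception, at 66.9 and 62.5 RPKM in WT and 51.6 and 92.7 RPKM in JMJD1B-/- HSPCs. In all, 4 of 10 markers were lower with limma at an unadjusted p under 0.05 (6.33% of all genes) and 5 lay below WT without overlap (22.7% of all genes). Cd34 was among both, with 42.9 and 43.5 RPKM in WT and 20.9 and 11.7 RPKM in JMJD1B-/- HSPCs. The summed level of the list was 490 and 444 RPKM in WT HSPCs, against 302 and 425 RPKM in JMJD1B-/- HSPCs. The basophil and mast cell markers had sums of 443 and 523 RPKM in WT and 93.6 and 44.4 RPKM in JMJD1B-/- HSPCs, with 5 of 6 lower at an unadjusted p under 0.05 in limma. The granulocyte markers had sums of 268 and 182 RPKM in WT and 81.1 and 51.6 RPKM in JMJD1B-/- HSPCs, with 4 of 7 lower and 2 higher at that threshold. Megakaryocyte markers had sums of 677 and 615 RPKM in WT and 266 and 374 RPKM in JMJD1B-/- HSPCs. The T and NK cell markers were at 20.3 and 23.4 RPKM in WT and at 42.1 and 12.6 RPKM in JMJD1B-/- HSPCs, the monocyte and macrophage markers at 51.2 and 30.1 against 36.9 and 14.5 RPKM, and those of stroma and endothelium at 40.0 and 69.3 against 24.3 and 11.0 RPKM. Of the 7 T and NK cell markers tested, 6 were above 0 (47.0% of all genes), with a median log2 fold change of 1.06, which was −0.19 without JMJD1B-/- replicate 1. All 6 tested markers of stroma and endothelium were below 0, with a median of −1.47. Of 8 B cell markers, Cd79b alone was in the table, at 3.28 RPKM or less.

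**Figure D5:**
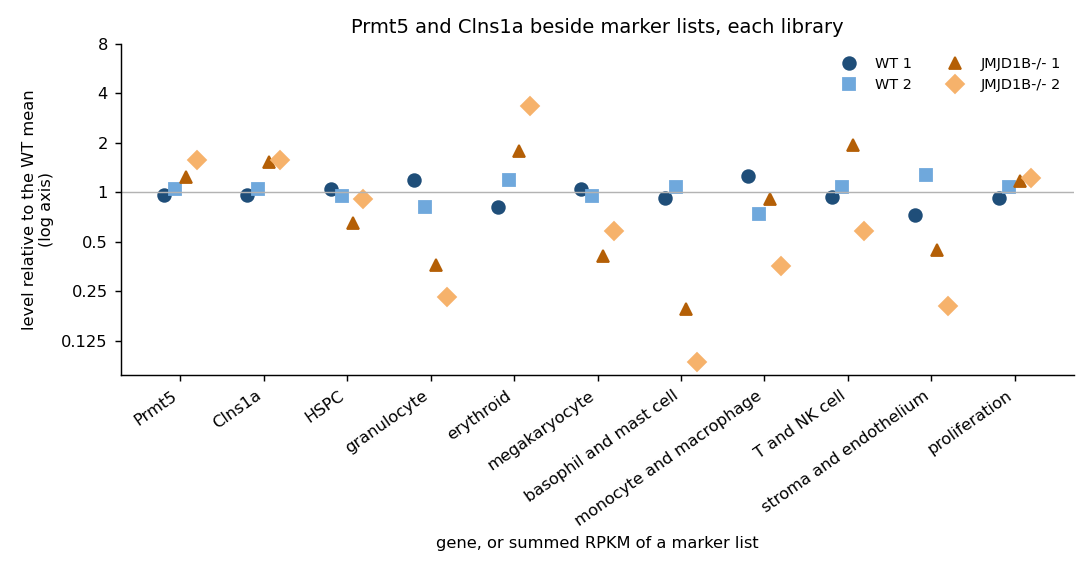
Level of Prmt5, of Clns1a and of the summed RPKM of marker lists in each library, relative to the mean of the 2 WT libraries, on a log axis. Symbols are single libraries. The erythroid and proliferation sums lie above both WT libraries in both JMJD1B-/- libraries, as Prmt5 and Clns1a do, and the basophil and mast cell, granulocyte, megakaryocyte and HSPC sums lie below.

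The genes whose pattern was most like that of Prmt5 were sought among 6092 other genes whose mean was no lower than 10 RPKM, by the root mean square difference of the log2 values centred over the 4 libraries. The 5 closest were Snrpf (0.020), Fam126a (0.023), Crcp (0.023), Eif2c2 (0.024) and Nfe2l2 (0.028). Snrpf, the gene of the Sm protein SmF, measured 13.2 and 13.9 RPKM in WT HSPCs, against 16.5 and 20.8 RPKM in JMJD1B-/- HSPCs. With 4 libraries, such a likeness is a description and has no test.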

How the data were processed

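HSPC RNA-seq of 2 WT and 2 JMJD1B-/- libraries was analysed from the table of RPKM values deposited by the authors, who had added 1 to every value. The submitters' processing notes name TopHat2, Novoalign and build mm9 without their roles, and the annotation and the counting program are not given in the sources used here. RPKM was taken as the deposited value minus 1. The table has 12024 entries for 11982 names, and 42 names with more than 1 entry were averaged. No gene has a highest deposited value under 2, so a gene that never reached 1 RPKM is absent from it. No column belonged to another sample. Of the names, 11901 were found in RefSeq (GRCm38.p6), which was used for older symbols, gene lengths and promoters.

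Depth came from genes under 3 RPKM, whose values form ratios of whole numbers between libraries, and from gene lengths, with which 20 of 96 genes gave the same depth (the next depth had 2 genes). Counts were not recovered for all genes, so no count test was run. Genes averaging 0.5 RPKM or more entered limma 3.58.1 (R 4.3.3) as log2(RPKM + 0.1) (eBayes with a trend, no replicate term, two-sided, Benjamini-Hochberg over 11863 genes), and limma was tested on simulated data. The main text of the study names a two-tailed Student test in general and none for RNA-seq, so that test was an alternative. With 2 samples a group, p-values measure the spread between these samples, and in limma the spread of a gene is combined with that of genes of similar level. The standard error of Clns1a was 0.203 in limma and 0.062 in the gene-by-gene test. Tables and figures used Python 3.11.15, numpy 2.4.6, pandas 2.3.3, scipy 1.17.1 and matplotlib 3.10.9.

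The genes, lists and tests were chosen with earlier results of these data known. Named from the other pathway lists were genes with an adjusted p under 0.05, or else up to 4 per list with an unadjusted p under 0.05 and no overlap between the genotypes, by size of change. Prmt9, Ndufaf7, Mtap, Padi4, Jmjd6 and the cell type markers named fall outside this rule and were chosen after their values were seen.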

Additional observations from a re-analysis of the deposited data

How the results depend on the processing

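With 2 libraries a genotype and a shallow JMJD1B-/- replicate 1, changes that lie within the intervals are not excluded, and single libraries decide many values. An estimate without 1 library assumes that the lone replicate varies like the others. None of the 10 genes had an adjusted p under 0.05 under any alternative.

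At an unadjusted p under 0.05, 2 of the 10 genes were higher and 0 lower. This became 1 higher with a pseudocount of 0.01, without a trend and with the gene-by-gene test, and 0 to 5 higher and 0 to 1 lower with each library left out. Clns1a passed in 12 and Prmt5 in 8 of 14 alternatives. Of the 72 other pathway genes, 5 were higher and 2 lower, which became 6 lower with quantile normalization, 1 higher and 1 lower without a trend, 2 higher and 1 lower with the gene-by-gene test, and 0 to 17 higher and 0 to 7 lower with each library left out. After adjustment 0 were lower, which became 0 to 1 with each library left out.

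Over all genes, 751 lower and 452 higher at an unadjusted p under 0.05 became 177 to 1819 lower and 123 to 1258 higher with each library left out (lowest without WT replicate 1). The lower share of 62.4% was 51.7% with quantile normalization. After adjustment, 4 lower and 1 higher became 15 and 3 with a pseudocount of 1, 0 and 0 without a trend and with the gene-by-gene test, and 0 to 523 and 0 to 147 with each library left out. The 4 lower became 2 with a pseudocount of 0.01 and with a filter at a mean of 1 RPKM, and 0 with median-ratio scaling and quantile normalization. The replicate numbers pair the samples by number alone (correlation of deviations −0.054 over 11863 genes). A replicate block gave 173 lower and 83 higher, with 1 lower among the other pathway genes, and kept all 10 genes uncalled.

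The sign turned in these cases, and the cause was not tested. With each library left out, Wdr77 ranged from −0.36 to 0.22, Riok1 from −0.046 to 0.034, Prmt1 from −0.24 to 0.59, Prmt2 from −1.02 to 0.068, Prmt6 from −0.28 to 0.26 and Prmt7 from −0.11 to 0.48, and the log2 ratio of Prmt5 to Clns1a from −0.30 to 0.00055 and to Carm1 from −0.038 to 0.13. Riok1 was 0.0051 with median-ratio scaling and Prmt6 0.058 with quantile normalization. The log2 difference of the Prmt5 share, 0.35, was 0.25 to 0.46 with each library left out.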
